A study of Homo sapiens with 10 samples.

Results

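The 10 genes followed here, of the interleukin-1 (IL-1) family and its receptors, were measured in all 10 RNA sequencing libraries of the series: the ligands IL1A, IL1B, IL36G, IL18 and IL33, the antagonist IL1RN, and the receptors IL1R1, IL1RAP, IL1R2 and IL1RL1. They were taken by gene symbol, and the 10 symbols matched 10 of 46427 genes in the deposited table. The members were chosen by their FPKM values in these same libraries (fragments scaled to gene length and library size), as known from earlier results of these data, so their values are given as a description, with no test. H460 and A549 are established human lung cancer cell lines. The 3 parental H460 libraries came from cells in 2-dimensional (2D) culture. Drug-resistant H460 cells were those that attached again on re-plating, after 3 days of drug and 3 days of fresh medium. The drug was cisplatin at 4 µM for CR cells, paclitaxel at 5 nM for PR cells, and for DR cells doxorubicin at 0.5 µM. There were 2 PR libraries and 1 each of CR and DR cells. Tumor spheroid (TS) cells, named after circulating tumor cells in the labels, were grown under sphere culture conditions, with 1 TS H460 library, 1 TS A549 library and 1 library of 2D A549 cells. Drug-resistant here therefore means survivors of a single short exposure of 1 cell line. Parental and PR libraries are labelled by order only, and nothing in the labels states separate cultures. Every SD and p-value below therefore measures the spread between these libraries, which may be technical. Over the 4 drug-resistant libraries, 2 of them PR, that spread also includes differences between the drugs. Where TS is compared with 2D culture over both lines, the lines serve as the replicates of TS culture.

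Background on the family is brief. IL-1α (IL1A) and IL-1β (IL1B) bind the receptor IL1R1, which recruits the accessory chain IL1RAP and signals through MyD88 and IRAK kinases to NF-κB, a driver of inflammatory gene expression. The antagonist IL1RN occupies the same receptor without signalling, and the decoy IL1R2 captures ligand without passing a signal on. IL-18, IL-33 and the IL-36 cytokines are relatives with their own receptors, and IL1RL1 (ST2) is the receptor of IL-33.

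On the GRCh38 build (GENCODE 29 annotation), IL1A lay at chr2:112773915-112784590, IL1B at chr2:112829751-112836903, IL36G at chr2:112973203-112985665 and IL1RN at chr2:113107214-113134016. They belong to a cluster of 9 protein-coding genes over 360.1 kb. IL1R2 (chr2:101991844-102028544), IL1R1 (chr2:102064544-102179874) and IL1RL1 (chr2:102311502-102352037) lay in a separate cluster of 6 protein-coding genes over 460.7 kb. IL18 is on chromosome 11, IL33 on chromosome 9 and IL1RAP on chromosome 3. IL1RL1 overlaps IL18R1 on the same strand, and IL18 and IL1R1 overlap genes on the other strand (AP002884.3 and IL1R1-AS1). How reads over these overlaps were assigned, and whether strand was used, was not given in the sources used here.

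Promoter sequence is shown for 4 members: both classical ligands, which had the largest differences among the 10 genes, their antagonist, and the receptor IL1RL1, whose start lies beside that of IL18R1. The stretches come from the RefSeq promoter table (GRCh38.p14). They begin 250 bases before the most upstream start site listed there for each gene and stop at the first base of any GENCODE exon. The IL1RN stretch lies inside the GENCODE gene, which starts further upstream. Each reads 5′ to 3′ on the strand of its gene. IL1A is chr2:112784591-112784743 and IL1B chr2:112836904-112837029, both on the minus strand. IL1RN is chr2:113117721-113117892 and IL1RL1 chr2:102311313-102311501, both on the plus strand. Capitals mark letters that match an NF-κB motif (GGGNNNNNCC), an AP-1 motif (TGANTCA) or a TATA motif (TATAAA), searched on both strands.
IL1A: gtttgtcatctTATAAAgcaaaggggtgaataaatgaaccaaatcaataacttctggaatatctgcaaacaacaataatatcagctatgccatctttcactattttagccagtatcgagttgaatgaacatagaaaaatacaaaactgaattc
IL1B: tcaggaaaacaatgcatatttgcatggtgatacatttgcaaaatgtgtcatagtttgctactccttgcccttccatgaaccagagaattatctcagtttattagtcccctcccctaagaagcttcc
IL1RN: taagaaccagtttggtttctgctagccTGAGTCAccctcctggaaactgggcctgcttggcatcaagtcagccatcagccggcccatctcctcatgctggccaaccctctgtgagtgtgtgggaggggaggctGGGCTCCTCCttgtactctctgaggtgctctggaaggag
IL1RL1: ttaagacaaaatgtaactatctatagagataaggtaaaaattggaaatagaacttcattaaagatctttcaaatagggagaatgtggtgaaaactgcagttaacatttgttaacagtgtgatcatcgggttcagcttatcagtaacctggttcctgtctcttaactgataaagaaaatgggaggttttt
The stretch of IL1A held 1 TATA match near its upstream end, that of IL1RN 1 AP-1 and 1 NF-κB match, and those of IL1B and IL1RL1 no match to these letters. The cut at exons leaves out the bases nearest the start site. In the full 250 bases of the same promoters, IL1A also held 1 AP-1 match and IL1RL1 held 1 TATA match. That of IL1RN held 3 NF-κB matches, and that of IL1B still none. Over the full 250 bases before the start sites, the table held 18 promoters for 9 of the members and none for IL18. The AP-1 letters occurred in 4 of the 18 member promoters, from 3 genes, and in 6.57% of all 35116 promoters. The 2 IL1A promoters overlap and share 1 AP-1 match, which is counted in both. The NF-κB letters occurred in 5 of the 18, from 4 genes, and in 54.4% of all promoters, and the TATA letters in 5 of the 18, from 5 genes, and in 10.7% of all. A match is a description of the letters and not a binding site.

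Levels below are in FPKM, a scale adjusted for gene length, so that levels of different genes can be set side by side. Differences are in log2(FPKM + 1) against the mean over the control libraries, which understates the change of low genes. In bulk libraries, fewer cells that express a gene and less RNA per cell cannot be told apart.

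**Figure D1:**
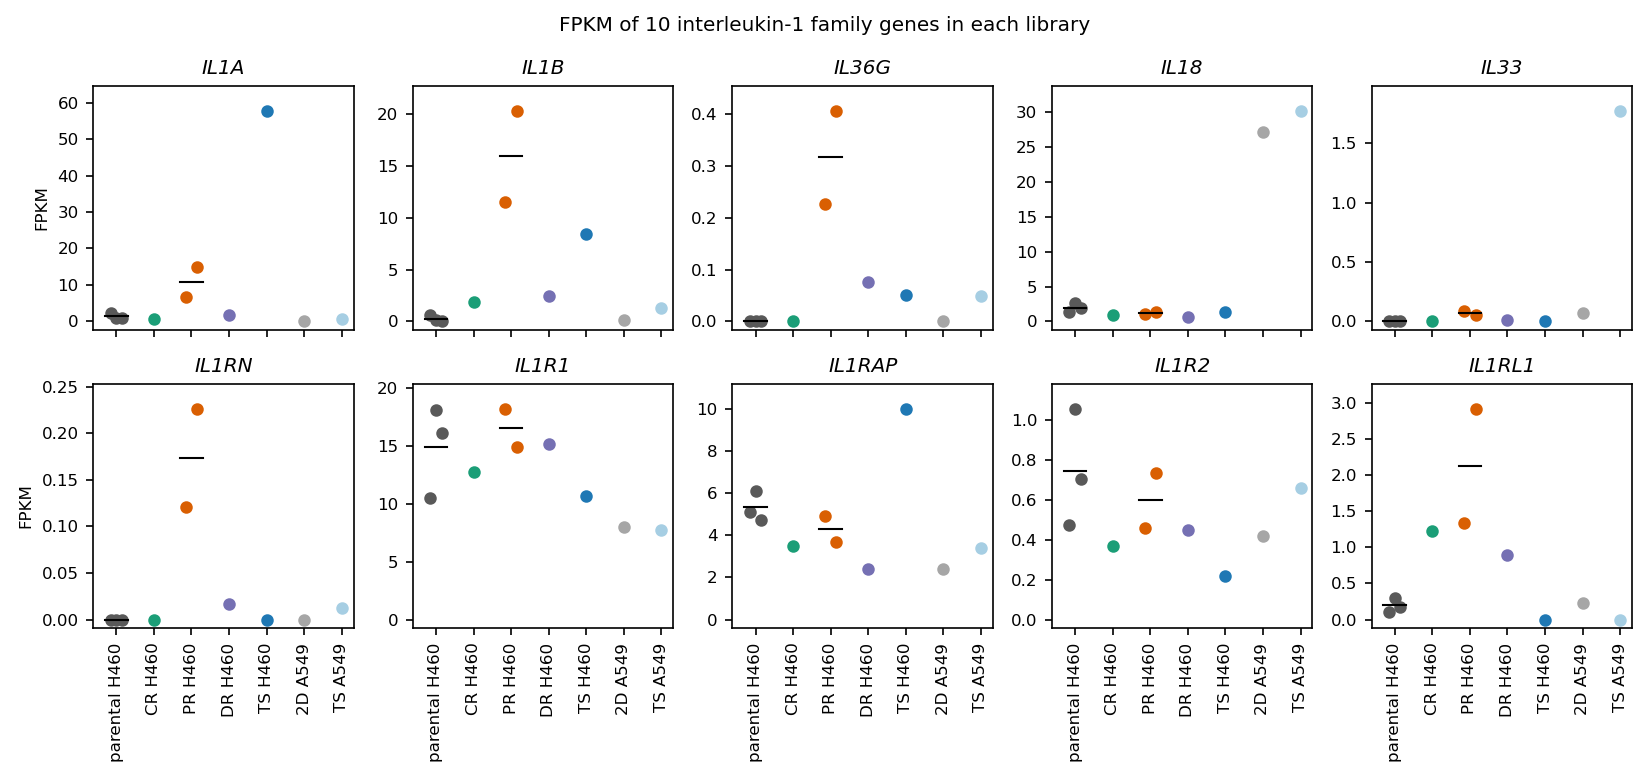
FPKM of the 10 genes in each of the 10 libraries, 1 panel per gene on its own linear axis and 1 point per library, coloured by group. IL1A stood at 57.6 FPKM in TS H460 cells, IL1B at 11.6 and 20.3 FPKM in PR cells, and IL18 at 27.1 and 30.1 FPKM in A549 cells.

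IL1A, the alarmin IL-1α, was highest in TS H460 cells and next highest in PR cells. It measured 2.42, 0.841 and 0.860 FPKM in the parental libraries, 0.660 in CR, 6.63 and 14.8 in PR, 1.64 in DR and 57.6 in TS H460 cells. In A549 cells it measured 0.0204 FPKM in 2D culture, from 4 reads, and 0.789 in TS cells, from 130 reads. Both PR libraries and the TS library lay above all 3 parental libraries, the CR library below all of them, and the DR library among them. The difference from the parental mean of 1.37 ± 0.904 FPKM (SD, n = 3) was 2.28 in PR, 4.69 in TS H460, 0.22 in DR and -0.45 in CR cells, and TS against 2D A549 cells gave 0.81. As a ratio of mean FPKM, IL1A was 42.0-fold higher in TS than in parental H460 cells and 7.81-fold higher in PR cells. The edgeR log2 fold change over all 4 drug-resistant libraries was 1.91 (SE 0.848), and without both PR libraries it was -0.29.

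IL1B, which encodes the precursor of IL-1β that caspase-1 cleaves, was higher in every drug-resistant and TS library than in its 2D controls. It measured 0.624, 0.137 and 0.0266 FPKM in the parental libraries, the lowest of these from 4 reads. The level was 1.90 FPKM in CR, 11.6 and 20.3 in PR, 2.43 in DR and 8.41 in TS H460 cells. In A549 cells it was 0.0906 FPKM in 2D and 1.27 in TS culture. None of the drug-resistant or TS H460 libraries overlapped the parental ones. The differences were 1.23 in CR, 3.72 in PR, 1.47 in DR, 2.93 in TS H460 and 1.06 in TS A549 cells. The parental libraries themselves spread widely (0.263 ± 0.318 FPKM, SD, n = 3), and the edgeR log2 fold change in PR cells moved from 5.65 (SE 0.839) to 7.35 without parental replicate 1. Over all drug-resistant libraries it was 4.89 (SE 1.05), 6.55 without parental replicate 1 and 3.00 without both PR libraries.

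The balance of the classical ligands differed between the groups. IL1A exceeded IL1B in the 3 parental libraries, by 3.87, 6.12 and 32.3 times, and in TS H460 cells by 6.85 times. In the drug-resistant libraries IL1B was the higher, with an IL1A to IL1B ratio of 0.348 in CR, 0.574 and 0.731 in PR and 0.675 in DR cells. The A549 libraries had ratios of 0.225 in 2D and 0.620 in TS culture. The 4 parental and TS H460 libraries lay on 1 side of equality and the other 6 libraries on the opposite side. The ratios of the parental replicate 3 and 2D A549 libraries rest on 4 reads of the lower ligand.

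**Figure D2:**
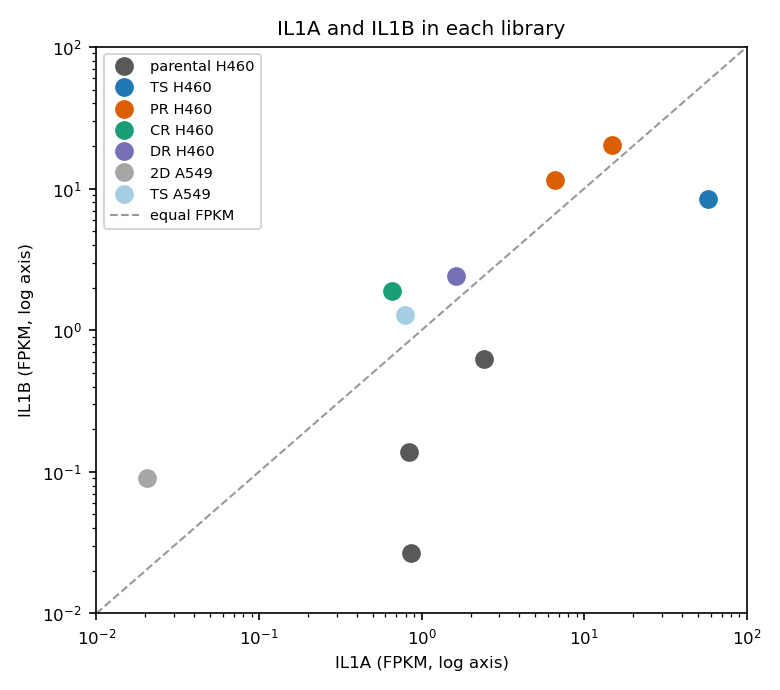
IL1A against IL1B in each library, both in FPKM on log axes, with the line of equal levels and 1 point per library. Parental and TS H460 libraries lie on the IL1A side of the line and drug-resistant H460 and A549 libraries on the IL1B side.

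IL1RN, the receptor antagonist, stayed far below its agonists. It had 0 reads in the 3 parental, the CR, the TS H460 and the 2D A549 libraries, 20 and 29 reads in PR, 4 in DR and 3 in TS A549 cells. At 0.120 and 0.226 FPKM in PR cells it reached at most 0.662% of the summed level of IL1A and IL1B in any library. Against a floor of 3 reads per parental library, IL1RN was at least 8.93-fold higher in PR cells.

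IL36G, an epithelial cytokine of the IL-36 group, was also highest in PR cells. It had 0 reads in the parental, CR and 2D A549 libraries, 24 and 33 reads in PR, 10 in DR and 5 in each TS library, and was at least 10.4-fold higher in PR than in parental cells. IL33, a nuclear alarmin, had 0 reads in the parental and TS H460 libraries, 23 and 12 in PR, 3 in CR and 4 in DR cells, at least 6.04-fold higher in PR cells. Low genes in general were more often detected in these libraries. Of 22424 genes with 0 reads in all parental libraries, 2.60% had at least 10 reads in both PR libraries, as IL1RN, IL36G and IL33 did. In single libraries the share was 3.47% and 4.16% in PR, 4.07% in DR and 0.669% in CR cells. Genes with at least 1 read numbered 25781 and 26133 in PR and 26745 in DR cells, against 21036 to 21603 in parental cells, and the part of this in the low members was not tested.

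IL33 differed most in A549 cells. It rested on 19 reads (0.0699 FPKM) in 2D A549 cells and on 388 reads (1.77 FPKM) in TS A549 cells, a 25.3-fold ratio with 1 library on each side and no replicate check, while TS H460 cells had 0 reads.

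IL18, a cytokine that epithelial cells store as a precursor, separated the lines more than the treatments. It measured 1.34, 2.60 and 1.94 FPKM in parental H460 cells and 27.1 FPKM in 2D A549 cells, a 13.8-fold ratio of means. TS culture left small differences, of -0.29 in H460 and 0.15 in A549 cells. In drug-resistant cells it measured 0.969 FPKM in CR, 1.00 and 1.40 in PR and 0.653 in DR cells. The CR, DR and first PR libraries lay below every parental library, and the second PR library did not. The means were 1.00 ± 0.304 (SD, n = 4) in drug-resistant and 1.96 ± 0.629 (SD, n = 3) in parental cells, with an edgeR log2 fold change of -1.08 (SE 0.338).

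IL1R1, the signalling receptor of IL-1α and IL-1β, was the highest of the 4 receptors in every library and varied little. It measured 10.5, 18.1 and 16.1 FPKM in parental, 12.7 in CR, 18.1 and 14.9 in PR, 15.1 in DR and 10.7 in TS H460 cells, and 7.94 and 7.74 FPKM in 2D and TS A549 cells. All drug-resistant and TS H460 libraries lay within the parental range except PR replicate 1, at its upper edge, whereas both A549 libraries lay below it. The means of 15.2 ± 2.21 (SD, n = 4) in drug-resistant and 14.9 ± 3.94 FPKM (SD, n = 3) in parental cells differed by less than their spread. The edgeR log2 fold change was -0.10 (SE 0.205) and turned to 0.06 with upper-quartile scaling, so no direction can be given.

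IL1RAP, the accessory chain shared by the IL-1, IL-33 and IL-36 receptors, was lower in CR and DR cells and higher in TS H460 cells than in parental cells. It measured 5.12, 6.10 and 4.74 FPKM in parental, 3.48 in CR, 4.94 and 3.69 in PR, 2.41 in DR and 9.98 in TS H460 cells. The CR, DR and second PR libraries lay below and the TS library above all parental libraries. The first PR library overlapped the parental ones in FPKM but lay narrowly below all of them in reads divided by the library total. Its order therefore depends on the scale. Differences were -0.49 in CR, -0.26 in PR, -0.88 in DR and 0.80 in TS H460 cells. The edgeR log2 fold change over all drug-resistant libraries was -0.74 (SE 0.222). In A549 cells it measured 2.41 FPKM in 2D and 3.39 in TS culture, a difference of 0.36.

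IL1R2, the decoy receptor, stayed at or below 1.05 FPKM. It measured 0.471, 1.05 and 0.705 FPKM in parental, 0.369 in CR, 0.460 and 0.732 in PR, 0.446 in DR and 0.220 in TS H460 cells, and 0.419 and 0.657 FPKM in 2D and TS A549 cells. In FPKM the CR, DR, TS H460 and first PR libraries lay below all parental libraries, the last by 0.460 against 0.471. In reads divided by the library total, the DR and TS H460 libraries overlapped the parental ones, so their order depends on the scale. The difference was -0.50 in TS H460 and 0.22 in TS A549 cells.

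IL1RL1, the receptor of IL-33, was higher in all drug-resistant libraries and had no reads in either TS library. It measured 0.111, 0.301 and 0.177 FPKM in parental cells, from 39 to 64 reads. The level was 1.23 FPKM in CR, 1.34 and 2.91 in PR and 0.887 in DR cells, from 347 to 751 reads, and no drug-resistant library overlapped a parental one. The means were 0.196 ± 0.0962 (SD, n = 3) and 1.59 ± 0.899 (SD, n = 4), and the edgeR log2 fold change was 3.13 (SE 0.422), or 2.67 without both PR libraries. With 0 reads in TS culture, against a floor of 3 reads, IL1RL1 was at least 15.2-fold higher in parental than in TS H460 cells and at least 24.9-fold higher in 2D than in TS A549 cells. Its overlapping neighbour IL18R1 did not follow it, at 10.5 to 25.2 FPKM in parental, 10.6 to 15.6 in drug-resistant and 11.5 in TS H460 cells.

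**Figure D3:**
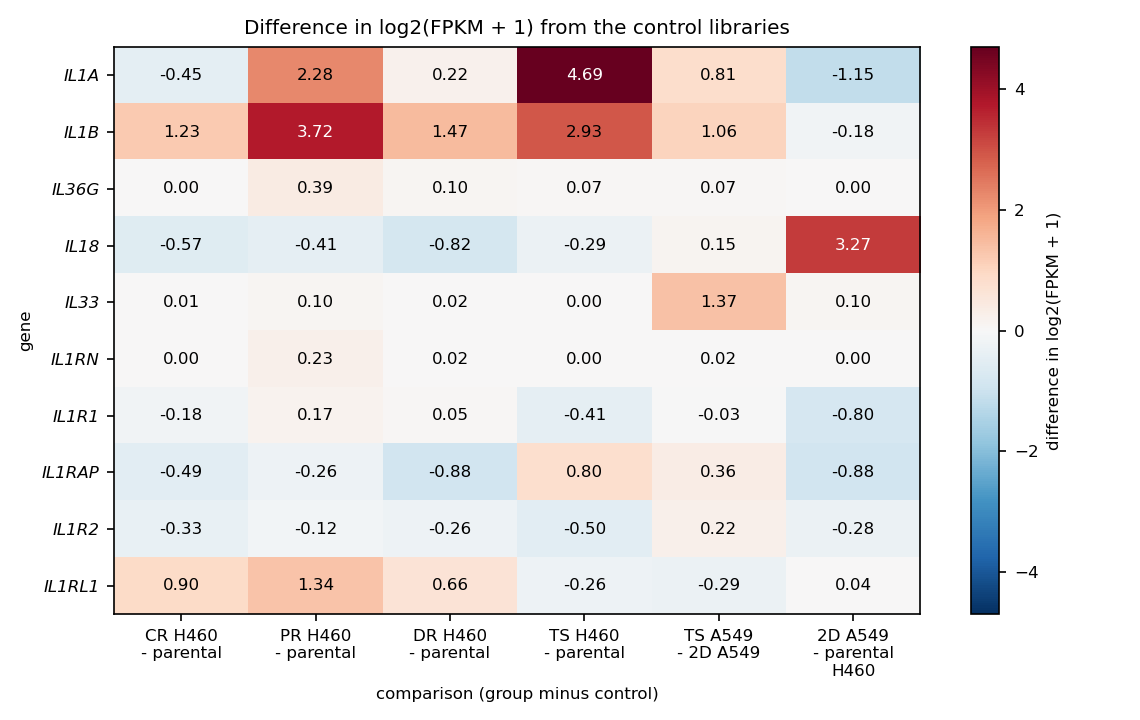
Differences in log2(FPKM + 1) of the 10 genes, group minus control, for 6 comparisons, with the value printed in each cell and red for higher. The extremes are 4.69 for IL1A in TS H460 cells and -1.15 for IL1A in 2D A549 against parental H460 cells.

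Set beside the rest of the transcriptome, with a change counted at more than 2-fold in FPKM + 1, IL1B alone of the 10 genes was higher in CR and in DR cells, where 5.84% and 5.76% of genes were higher. In PR cells IL1A, IL1B and IL1RL1 were higher, against 7.62% of genes. In TS H460 cells IL1A and IL1B were higher, against 1.93%, and in TS A549 cells IL1B and IL33, against 6.7%. No member was lower at this cut-off in these 5 comparisons, where 7.05% of genes were lower in CR, 5.62% in PR, 5.68% in DR, 1.97% in TS H460 and 3.02% in TS A549 cells. A member whose controls average under 1 FPKM cannot be counted as lower on this scale. With a pseudocount of 0.1, IL18 (-1.41) and IL1RAP (-1.10) were lower in DR cells, IL1R2 (-1.34) and IL1RL1 (-1.52) in TS H460 cells and IL1RL1 (-1.70) in TS A549 cells. Between the lines in 2D culture, IL18 was higher in A549 cells (11.2% of genes) and IL1A lower (7.73% of genes). These percentages refer to genes that reached 1 FPKM in a library compared. In libraries rather than folds, IL1B and IL1RL1 had all 4 drug-resistant libraries above all 3 parental ones, which held for 25.8% of the 18398 genes of the drug-resistant fit. IL33 did so too, but from 3 reads in CR and 4 in DR cells, and it was not among those 18398 genes. Because the members were picked with these values known, nothing is read from the counts.

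The same holds for the fits by edgeR's quasi-likelihood test with Benjamini-Hochberg adjustment at 0.05. These fits ran over all genes, and the calls of members are listed as a description, not as a test of the members. Drug-resistant against parental cells, 7 members passed the filter on low counts. IL1B and IL1RL1 were called higher and IL1RAP and IL18 lower, against 18.4% and 15.4% of all genes. PR against parental cells, all 10 passed the filter. IL1A, IL1B and IL1RL1 were called higher and none lower, against 17.4% and 10.7%. IL1RN, IL36G and IL33 were called higher as well, but had 0 reads in every parental library. They passed the filter only through their reads in PR cells, and could only be called higher. Over TS against 2D culture in both lines, 8 passed the filter and IL1A was called higher and none lower, against 0.147% and 0.0435%. With upper-quartile scaling the split of all calls shifted, from 3382 higher and 2838 lower genes to 4193 and 2031 in drug-resistant cells. In PR cells it went from 3381 and 2085 to 4185 and 1364. That scaling moved the median over all genes, on the log2 scale, from 0.06 to 0.23 in drug-resistant and from 0.05 to 0.30 in PR cells.

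PR cells stood above the CR and DR cells for most members. Both PR libraries lay above both the CR and DR libraries for 9 of the 10 genes, IL1R1 being the exception, where 39.8% of 18398 genes did so. IL1RN, IL36G and IL33, counted among the 9, were not among those 18398 genes and had 12 to 33 reads in the PR libraries. The members were picked with these values known, so nothing is read from this count. The margin was wide for the classical ligands. The lower PR library had 6.63 FPKM of IL1A and 11.6 of IL1B, and the higher of CR and DR had 1.64 and 2.43. It was narrow for IL1RL1, at 1.34 against 1.23 FPKM, and for IL18, at 1.00 against 0.969 FPKM, IL1R2, at 0.460 against 0.446, and IL1RAP, at 3.69 against 3.48. In reads divided by the library total, IL1R2 overlapped as well, which left 8 of the 10 genes, against 41.3% of all genes. CR and DR cells have 1 library each, so their own spread is unknown.

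Within the ligand cluster on chromosome 2, IL1A and IL1B were the only 2 of 9 protein-coding genes that reached 1 FPKM in any library. For 8 of the 9 the highest library was a PR library, IL1A being the exception, as it was for 34.5% of 33044 genes detected and for 43.8% of those under 1 FPKM throughout. IL37, IL36A and IL1F10 never passed 8 reads, so their order rests on few reads. IL36B, an IL-36 agonist, had 39 and 40 reads in PR cells, 4 in CR and 16 in DR cells and 0 in all other libraries, at least 14.1-fold higher in PR than in parental cells. IL36RN, the IL-36 antagonist, had 19 and 24 reads in PR, 7 in DR and 0 elsewhere, at least 7.78-fold higher. In the receptor cluster all 6 genes reached 1 FPKM in some library, and for 4 of them the highest was a PR library.

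By the Pearson correlation of log2(FPKM + 1) over the 10 libraries, among 13439 genes, the genes nearest to IL1A were ADGRG3 (r = 0.971), SIRLNT (0.951) and NPTX2 (0.939). Those nearest to IL1B were ZNF503-AS2 (0.943), MBD1 (0.933) and PANK1 (0.913). IL18 was nearest to DNAJC22 (0.993), GLUD2 (0.992) and PAK4 (0.989), with the A549 libraries apart from the rest. IL1RL1 was nearest to COL16A1 (0.986), URGCP (0.980) and MTHFSD (0.980), IL1R1 to KLLN (0.969), OGA (0.960) and EDIL3 (0.957), and IL1RAP to SCML1 (0.974), ACSL4 (0.927) and DGKE (0.918). IL1A and IL1B correlated at r = 0.809. These values describe 10 libraries that share cell lines and treatments and carry no test.

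Other genes of the pathway came from 5 lists of 90 genes in all, also written with earlier results known. In drug-resistant against parental H460 cells, 34 of the 68 genes tested were called higher and 1 lower, against 18.4% and 15.4% of all genes. Without both PR libraries, 20 of 67 were called higher and 3 lower. The calls over all genes fell there too, to 1750 higher and 1592 lower of 17960. Adjusted p-values in the following are from edgeR's quasi-likelihood test with Benjamini-Hochberg adjustment over 18398 genes.

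Of the genes known to be induced by IL-1, 17 of 22 tested rose and none fell, with a median log2 fold change of 2.29 against 0.06 over all genes. MMP1, interstitial collagenase, rose from 0.935 ± 0.418 FPKM (SD, n = 3) to 202 ± 131 (SD, n = 4), a log2 fold change of 7.62 (SE 0.729, edgeR adjusted p = 0.000183). The individual drug-resistant libraries had 182 FPKM in CR, 220 and 364 in PR and 45.2 in DR cells. TNFAIP6, a hyaluronan-binding protein, rose by 5.40 (SE 1.07, edgeR adjusted p = 0.00423). It had 4, 4 and 0 reads in the parental libraries, 40 in CR, 154 and 260 in PR and 37 in DR cells. MMP10, stromelysin-2, rose by 3.22 (SE 0.633, edgeR adjusted p = 0.00402). CCL2, a monocyte chemoattractant, had 0 reads in the parental libraries and 0.314 FPKM in CR, 6.08 and 8.46 in PR and 0.397 in DR cells, at least 143.7-fold higher in PR cells. Its edgeR adjusted p over the drug-resistant libraries was 0.00659, and 0.0959 with no filter on low counts. Without parental reads, CCL2 could only be called higher. Both PR libraries lay above CR and DR cells for 18 of these 22 genes, against 39.8% of all genes.

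Of the signalling genes, 9 of 29 were called higher and 1 lower, with a median of 0.13. RELB, an NF-κB subunit, rose by 2.34 (SE 0.421, edgeR adjusted p = 0.00255), and TNFAIP3, the ubiquitin-editing inhibitor of NF-κB, from 35.9 ± 18.4 FPKM (SD, n = 3) to 112 ± 13.5 (SD, n = 4), edgeR adjusted p = 0.00824. IRAK2, a kinase of the receptor complex, rose by 2.23 (SE 0.544, edgeR adjusted p = 0.0111), and was not called under 3 of 15 alternatives (without parental replicate 2, without parental replicate 3 and without both PR libraries), with an adjusted p of up to 0.0926. NFKBIZ, an atypical IκB protein, rose by 1.67 (SE 0.479, edgeR adjusted p = 0.0225), and was not called under 6 of 15 alternatives. ECSIT, an adaptor of the pathway with a role in mitochondria, fell by 0.96 (SE 0.158, edgeR adjusted p = 0.00159).

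Of the genes for processing and release, 5 of 11 tested were called higher and none lower, with a median of 0.91. CASP1, the protease that matures IL-1β and IL-18, rose from 0.0483 ± 0.0203 to 0.611 ± 0.329 FPKM (SD, n = 3 and 4; edgeR adjusted p = 0.00297). CARD16, a CASP1 regulator, rose by 2.28 (SE 0.579, edgeR adjusted p = 0.0134, and 0.0585 without both PR libraries). It averaged 0.0987 FPKM in parental and 0.570 in drug-resistant cells. NLRP1, an inflammasome sensor, rose by 2.03 (SE 0.428, edgeR adjusted p = 0.0055), from a mean of 0.1625 to 0.729 FPKM. CASP1, CARD16 and NLRP1 stayed under 1 FPKM in every library. The part in this of the wider detection of low genes was not tested. GSDME, a pore-forming gasdermin, rose by 0.99 (SE 0.307, edgeR adjusted p = 0.0302), and was not called under 5 of 15 alternatives. CAPN2, a calpain subunit of the group that cleaves the IL-1α precursor, was the remaining gene called. PYCARD, the adaptor that joins many inflammasome sensors to caspase-1, had 0 reads in all 8 H460 libraries and 8 and 6 reads in A549 cells. None of the 11 genes had both PR libraries above CR and DR cells, and 5 had both below, against 39.8% and 15.9% of all genes. In reads divided by the library total these counts were 1 and 5.

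Of the remaining receptors, IL1RL2, the IL-36 receptor, was the only gene of 4 called in drug-resistant cells. It measured 0.0482, 0.203 and 0.201 FPKM in parental, 0.433 in CR, 1.03 and 1.51 in PR and 0.204 in DR cells (edgeR adjusted p = 0.0319), and was not called under 8 of 15 alternatives, with an adjusted p of up to 0.282. Of the remaining ligands and binding proteins, 2 of 6 could be tested, and both rose. IL18BP, the soluble inhibitor of IL-18, went from 0.902 ± 0.299 to 3.04 ± 0.727 FPKM (SD, n = 3 and 4; edgeR adjusted p = 0.00316). IL36B had an edgeR adjusted p of 0.00755. With 0 reads in every parental library, it could be tested only through drug-resistant libraries and could only be called higher.

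In TS against 2D culture, of 69 list genes tested over both lines, only LCN2, lipocalin-2, was called (edgeR adjusted p = 0.0038), against 0.147% of all genes called higher. It went from 0.265 to 123 FPKM in A549 cells and from 0 reads in every parental library to 0.211 FPKM in H460 cells. The median log2 fold change of the IL-1-induced genes was 0.22, and that of all genes tested -0.01. The whole fit called 35 of 18372 genes, and DESeq2 called 537 genes, 7 of them from the lists. In H460 cells taken alone, 25 of the 33 IL-1-induced genes were detected in parental or TS cells. The TS library lay above all 3 parental libraries for 14 of them and below all 3 for 5, against 22.5% and 19.2% of 24852 genes detected, with no replicate of TS culture. PTGS2, the inducible cyclooxygenase, at 4.05 FPKM against at most 0.646, and the complement component C3, at 19.3 against at most 2.76, were among those above. MMP1, at 0.144 FPKM against at least 0.478, was among those below.

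**Figure D4:**
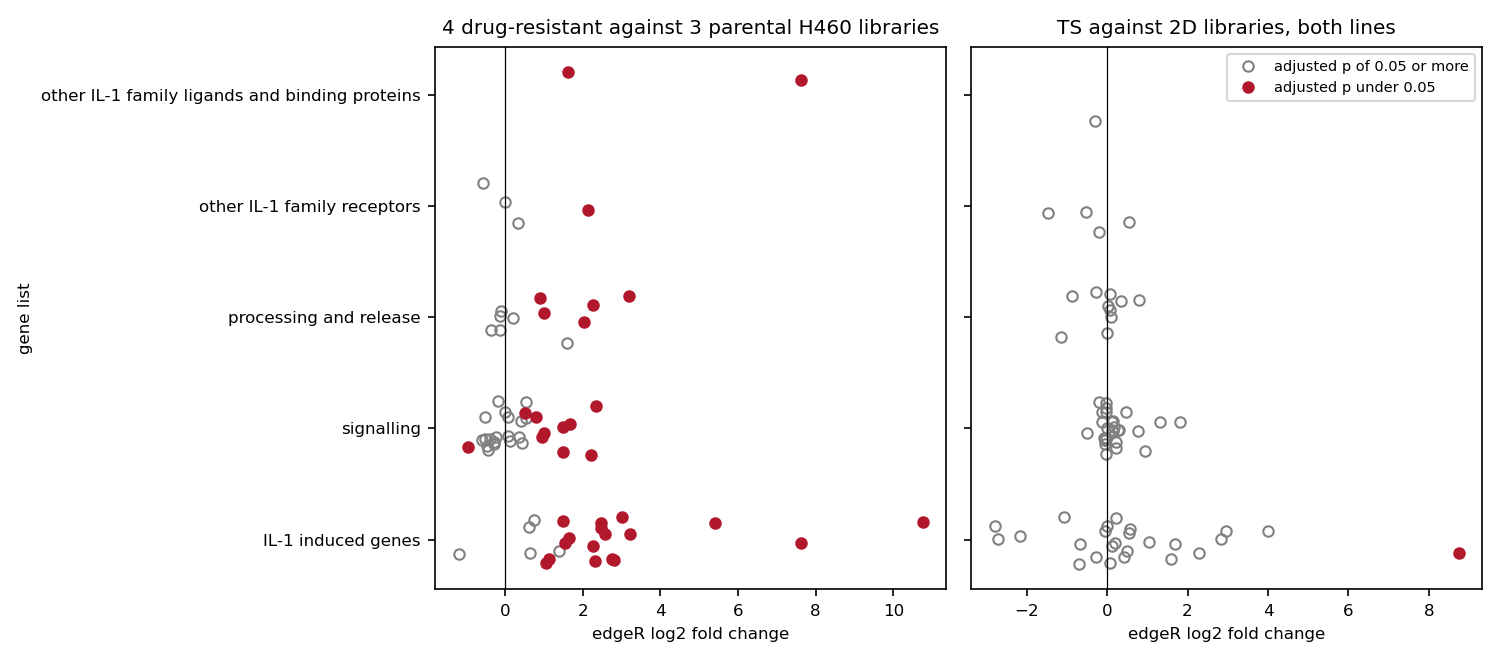
edgeR log2 fold changes of the tested genes of the 5 pathway lists, 1 point per gene, in drug-resistant against parental H460 cells and in TS against 2D culture, with genes past an adjusted p of 0.05 filled. In drug-resistant cells 17 of 22 IL-1-induced genes are filled and higher, and in TS culture only LCN2 is. The points of CCL2 and IL36B in drug-resistant cells rest on parental libraries with 0 reads, so their distance from 0 depends on the prior count of the fit.

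The libraries held 59499787 to 89541774 reads on genes, with a median of 71656787. All 5 epithelial markers reached 1 FPKM in some library, but in H460 cells EPCAM and CDH1, defining epithelial surface genes, stayed at or below 0.114 and 0.0266 FPKM. None of the 4 alveolar markers reached 1 FPKM, and SFTPB had 0 reads throughout. Of 8 leukocyte and myeloid markers, 2 did so in some library (CD14 and LYZ), while PTPRC, the pan-leukocyte marker, stayed at or below 0.157 FPKM. Their summed level was 2.99 to 9.49 FPKM in parental, 12.1 to 18.0 in drug-resistant and 8.83 in TS H460 cells, and 3.06 and 48.3 FPKM in 2D and TS A549 cells. The fibroblast markers summed to 0.237 to 2.78 FPKM in parental, 0.420 to 7.37 in drug-resistant and 26.7 in TS H460 cells, and LUM was the only 1 of 4 that reached 1 FPKM. The part of these markers in the levels of the members was not tested. Library names in the labels have 2 written forms, with and without a hyphen before the year, and both forms hold parental and drug-resistant libraries. Of these, names without a hyphen hold PR replicate 1 and parental replicates 1 and 3. Names with a hyphen hold the CR and DR libraries, PR replicate 2 and parental replicate 2. The forms therefore differ in drug and in controls, and a difference between them cannot be told apart from these. Within names without a hyphen, the drug-resistant differences of IL1A, IL1B and IL1RL1 were 1.60, 3.28 and 1.03. Within names with a hyphen they were 1.16, 2.39 and 0.97. IL1RAP gave 0.0011 and -0.77 in the same order, and IL1R1 0.45 and -0.33.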

How the data were processed

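Poly(A) RNA of the 10 libraries was sequenced on Illumina HiSeq systems. The submitters' processing notes name bcl2fastq 1.8.4, Trimmomatic, HISAT2 2.1.0, StringTie 2.1.3b and GRCh38. The counting step, its annotation and its use of strand were not given in the sources used here. The authors deposited, for each gene and library, a whole-number read count. They also deposited FPKM values, which were used for levels, and TPM values, which were not used. Genes were matched by symbol.

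Counts were tested with edgeR 4.0.16 (robust quasi-likelihood test, TMM scaling, filterByExpr, Benjamini-Hochberg adjustment over all genes tested, threshold 0.05) in R 4.3.3. The fits were drug-resistant against parental H460 (4 and 3 libraries), PR against parental H460 (2 and 3), and TS against 2D culture with the cell line in the model. Where 1 side had 1 library, differences in log2(FPKM + 1) above 1 were counted as 2-fold, among genes that reached 1 FPKM. A gene with 0 reads was set to a floor of 3 reads per library for bounds on ratios. Such bounds cover counting error only.

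The members, the pathway lists and the marker lists were chosen with earlier results of these data known, so members carry no p-value. Named list genes were, per list, the 4 called genes with the largest change in each direction in drug-resistant cells and the 2 in TS culture. CAPN2, PYCARD, IL36RN, IL18R1 and CXCL5 and the TS values of MMP1, PTGS2 and C3 were added after their values were seen. For members that reached 1 FPKM in at least 2 libraries, the 3 genes of highest Pearson correlation were named. Alternatives were DESeq2 size factors, upper-quartile scaling, other filters, DESeq2 1.42.0, limma 3.58.1 on log2(FPKM + 1), a pseudocount of 0.1, TMM-scaled CPM, libraries left out, the written form of the library name, and a replicate block. Leaving out both PR libraries, the order of PR against CR and DR cells, the count of genes at 0 reads in parental cells, the order of TS H460 against parental libraries, and orders by reads divided by the library total were added after seeing the data. The fits were tested on simulated data. Sequences came from the RefSeq promoter table, and gene positions from GENCODE 29, whose build is the one named by the submitters. Tables were handled in Python 3.11.15 with numpy 2.4.6, pandas 2.3.3 and matplotlib 3.10.9.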

Additional observations from a re-analysis of the deposited data

Results flagged for a closer look

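Several members moved one way in all libraries of 1 group and the opposite way in another group, both read as differences in log2(FPKM + 1) against 2D cells, and none of these contrasts between groups was tested. All rest on groups of 1 or 2 libraries, and the H460 groups share the 3 parental libraries as controls. IL1A differed by 2.28 in PR cells and by -0.45 in CR cells, and against the -0.45 in CR cells stood 4.69 in TS H460 cells. IL1RAP was lower in CR (-0.49) and DR cells (-0.88) and higher in TS H460 cells (0.80). IL1RL1 was higher in CR (0.90), PR (1.34) and DR cells (0.66) and lower in TS H460 cells (-0.26). IL1R2 differed by -0.50 in TS H460 cells and by 0.22 in TS A549 cells. In reads divided by the library total, the TS H460 library overlapped the parental ones for this gene.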

How the results depend on the processing

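Of the member differences, IL1A over all drug-resistant libraries reversed, from 1.08 to -0.12, without both PR libraries. That choice also lowered the genes called in drug-resistant cells from 6220 to 3342, the list genes called from 35 to 23, and the members more than 2-fold apart from 3 to 1. In PR cells, 5466 genes were called, 2762 with an FPKM filter and 3026 with limma. Leaving out 1 library gave 1008 to 6591 genes and 18 to 41 of the list genes (37 with all libraries), the lowest without PR replicate 2. With 2 PR libraries, and 1 in every other treated group, library number limits the precision. In TS culture 35 genes were called, 70 with no filter, 19 with an FPKM filter and 537 with DESeq2, and 5 to 36 without 1 parental library. The list genes called there went from 1 to 2, 0 and 7 under no filter, the FPKM filter and DESeq2; the 0 stood beside 9 at an unadjusted p under 0.05. A pseudocount of 0.1 in place of 1 raised the members counted as 2-fold apart to 2 in CR, 5 in PR, 4 in DR (2 of them lower), 4 in TS H460 (2 lower) and 4 in TS A549 cells (1 lower), and the genes so counted to 2632, 2975, 2316, 908 and 1848. TMM-scaled CPM in place of FPKM gave 2 members in CR, 3 in DR (IL1RAP lower, by -1.22) and 4 in TS A549 cells (IL1RL1 lower, by -1.02). The cause was not tested.

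PR and parental replicates that share a number were not shown to be paired, with r = 0.0843 between their deviations over 19179 genes. A replicate block over replicates 1 and 2 gave 6648 genes called, against 6591 in the same 4 libraries with no block, and 37 against 41 list genes. The other 106 summary values stayed within 1.5 times.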

Other observations

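IL-18 and its receptor had opposite levels in the lines, in values chosen after they were seen. IL18 measured 27.1 FPKM in 2D and 30.1 in TS A549 cells, where IL18R1, its ligand-binding receptor chain, measured 0.348 and 0.538 FPKM. In H460 cells IL18 stayed at or below 2.60 FPKM and IL18R1 at or above 10.5 FPKM. CCL2, which had 0 reads in parental and TS H460 cells, measured 17.6 and 16.9 FPKM in 2D and TS A549 cells. With 1 library for each A549 group, these differences have no replicate check.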
